A study of Mus musculus with 27 samples.

Results

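The genes described here are 32 mouse genes of fatty acid oxidation, ketone body metabolism and the response to peroxisome proliferator-activated receptors (PPARs), chosen by gene symbol among the 39971 genes of the deposited table. Of these 32, 31 had at least 1 FPKM (the authors' level, scaled for gene length and sequencing depth) in at least 5 of the 27 libraries and were tested among 15080 genes. Fabp1 alone stayed under that limit. Bulk RNA was sequenced in 27 libraries from samples taken 1 week after chemotherapy began. CAC_FPL mice (n = 6) received FOLFOX by injection into the abdomen and, by gavage, a probiotic complex together with loperamide, a drug against diarrhoea that acts on opioid receptors of the gut. CAC_FP mice (n = 5) received FOLFOX and the probiotic complex. CAC_F mice (n = 5) received FOLFOX, the combination of folinic acid, fluorouracil and oxaliplatin, with saline by gavage. CAC mice (n = 5) received saline by both routes. All 4 of these groups were wild-type BALB/c mice that carried colonic neoplasia brought on by azoxymethane and dextran sulfate sodium (AOM/DSS), and their RNA came from a tumor-bearing segment of colon. NC mice (n = 6) were wild-type mice of the same batch without AOM/DSS, described as unprocessed in the study's design and as given saline by both routes in the labels, and their RNA came from colon. AOM/DSS and the kind of tissue sampled therefore cannot be told apart, and no group had the probiotic complex or loperamide without FOLFOX. The labels give 1 batch for all libraries. They do not say whether each library came from a separate mouse or how much tumor a segment held, so the p-values measure the spread between these samples, which may in part be technical.

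Fatty acids are oxidised as acyl-CoA, and long chains cross the inner mitochondrial membrane as carnitine esters. The acyl-CoA is shortened in repeated rounds by an acyl-CoA dehydrogenase, a hydratase, a hydroxyacyl-CoA dehydrogenase and a thiolase. Separate enzymes serve long, medium and short chains. PPARs are nuclear receptors that bind fatty acids and switch on many of these genes together with genes of lipid storage and transport. Colonocytes are known for oxidising butyrate, a short-chain fatty acid made by bacteria, and for making ketone bodies from it.

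Total counts were 56687812 to 79709845 per library, with at least 99.03% in the tested genes. Libraries are named by group and replicate number. CAC_FPL 3 and CAC 2 stood apart by genes of the distal body axis: the summed FPKM of Hoxa13, Hoxd13, Hoxd12 and Hoxd11 was 39.3 in CAC_FPL 3 and 18.7 in CAC 2, against 0.46 to 13.7 in the others. Adipocyte markers (7 genes, Adipoq and Cfd among them) summed to 940 FPKM in CAC_FPL 1 and 884 FPKM in CAC_FPL 6, and to 2.37 to 434 FPKM in the others. No epithelial marker of the colon was at 0 in any group: the 11 absorptive colonocyte markers summed to 2078 to 11745 FPKM. Results that rest on these libraries are given with and without them.

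Under FOLFOX the genes of one pathway went in both directions. In CAC_F against CAC, 20 of the 31 tested members passed the test (edgeR's quasi-likelihood test, adjusted p below 0.05), 7 higher and 13 lower, while 39.1% of all tested genes were called, 19.0% higher and 20.2% lower. The medium- and short-chain enzymes Acadm, Acads, Echs1 and Hadh, the thiolases Acaa1a and Acat1, the receptor gene Ppara and the intestinal fatty acid binding protein Fabp2 fell. The long-chain dehydrogenase Acadl, the activating enzyme Acsl5, the lipid droplet coat protein Plin2, the mitochondrial carrier Ucp2 and the secreted lipase inhibitor Angptl4 rose. The carnitine gate Cpt1a and the trifunctional enzyme subunits Hadha and Hadhb did not pass the test. Changes are given as log2 fold changes ± SE. The members' median log2 fold change was -0.335, and that of all tested genes -0.03. In FPKM, the CAC_F and CAC libraries did not overlap for 5 members that were higher in CAC_F (11.2% of all tested genes) and 8 that were lower (7.47%). Mean FPKM was lowest in CAC_F among the 5 groups for 18 of the 32 members, but the share over all genes was not counted. In bulk RNA, fewer cells of a type and less RNA per cell cannot be told apart.

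**Figure D1:**
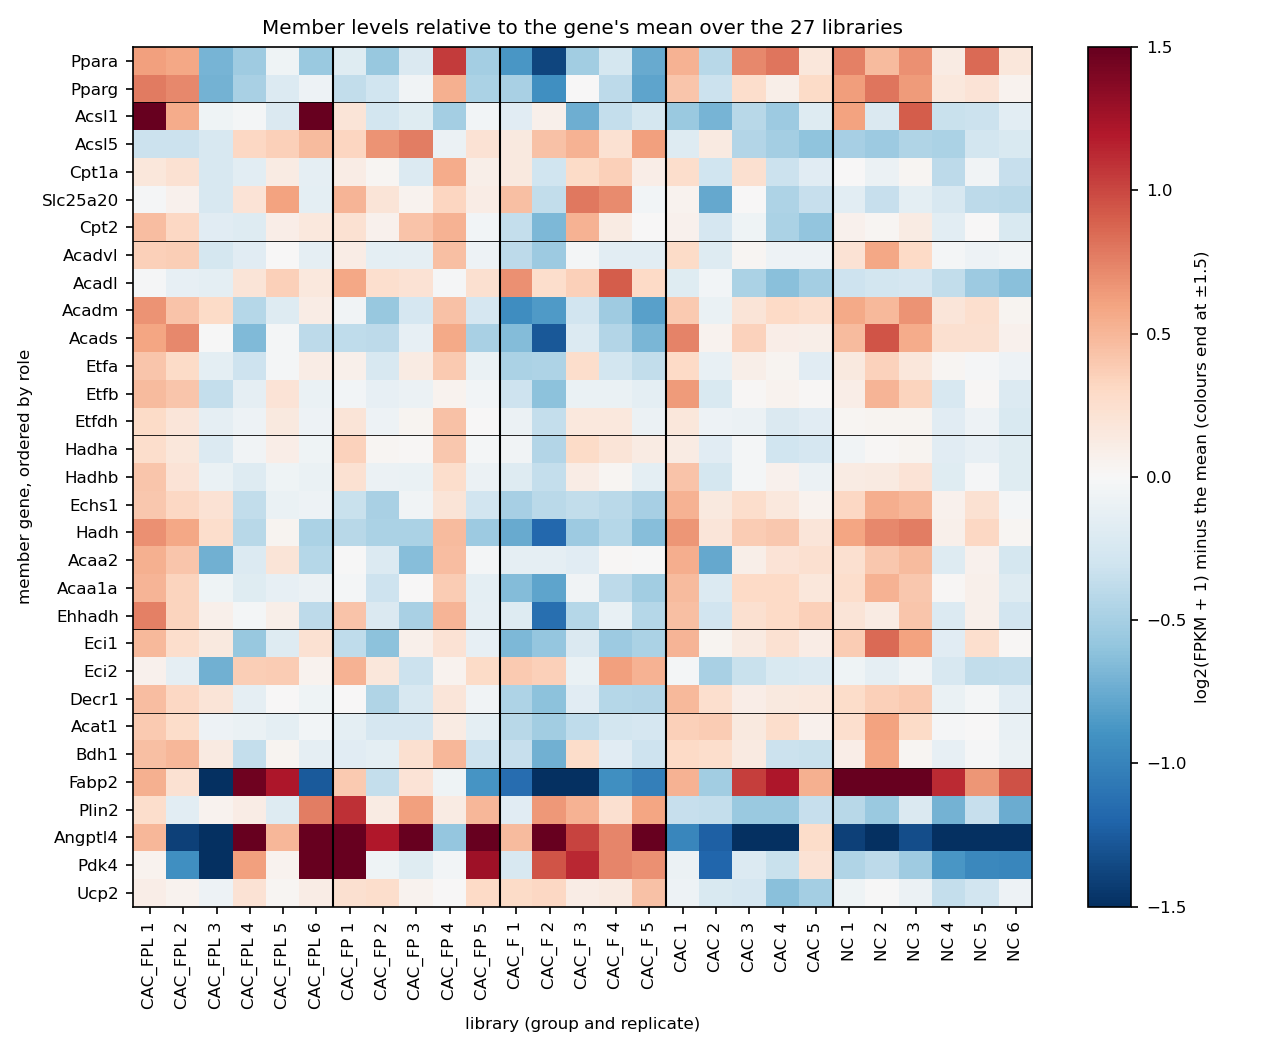
Heat map of 31 members in the 27 libraries, as log2(FPKM + 1) minus the gene's mean over all libraries, with groups divided by vertical lines and roles by horizontal lines. The CAC_F columns are blue for most dehydrogenases, thiolases and isomerases and red for Acadl, Acsl5, Eci2, Plin2, Angptl4 and Ucp2, and CAC_FPL 1, CAC_FPL 2 and CAC_FP 4 are redder than the rest of their groups for many enzymes.

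PPARα, encoded by Ppara, drives the fasting programme of fat oxidation in liver. Ppara had 1.11 to 4.23 (median 1.81) FPKM in CAC_FPL, 2.02, 1.31, 1.95, 6.1 and 1.4 FPKM in CAC_FP and 0.87, 0.32, 1.38, 1.84 and 1.02 FPKM in CAC_F. Ppara had 3.92, 1.57, 4.64, 4.96 and 2.84 FPKM in CAC and 2.73 to 5.15 (median 4.12) FPKM in NC. The lowest library was CAC_F 2, and the ranges of CAC_F and CAC met only through CAC 2. Ppara fell in CAC_F against CAC, with a log2 fold change of -1.82 ± 0.48, edgeR adjusted p = 0.00493, and was called under every alternative that kept it. In CAC_FPL and CAC_FP against CAC its log2 fold changes were -0.65 ± 0.45 and -0.59 ± 0.47, neither called.

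Pparg, whose product PPARγ is highly expressed in colon epithelium and fat, had 13.8 to 40.7 (median 21) FPKM in CAC_FPL, 17.8, 18.7, 22.3, 34.2 and 16.5 FPKM in CAC_FP and 16.3, 11.8, 23.5, 17.5 and 13.1 FPKM in CAC_F. Pparg had 31.5, 18.5, 28.1, 24.9 and 28.7 FPKM in CAC and 24.2 to 41.5 (median 31.7) FPKM in NC. CAC_F and CAC overlapped, since CAC_F 3 lay above CAC 2. Pparg fell in CAC_F against CAC (log2 fold change -0.77 ± 0.28, edgeR adjusted p = 0.0318). That call was lost without any 1 of CAC 1, CAC 3, CAC 5, CAC_F 1, CAC_F 2 or CAC_F 5, with adjusted p-values of 0.053 to 0.0933, without CAC_F 1 and CAC_F 2 (0.155), without the filter on low values (0.0881) and with the smooth muscle markers as a covariate (0.19). The related receptor gene Ppard, from outside the 32, differed by -0.05 ± 0.14 and was not called.

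Acyl-CoA synthetases activate the fatty acid, and the carnitine shuttle carries long chains into the mitochondrion. In this role 2 of 5 members passed in CAC_F against CAC, both higher, beside 39.1% of all tested genes (19.0% higher). Acsl5, the synthetase of the intestinal mucosa, rose (log2 fold change 0.65 ± 0.16, edgeR adjusted p = 0.00295), with 31.3 to 43.8 FPKM in CAC_F and 18.1 to 30.9 FPKM in CAC and no overlap. Its call was lost with the smooth muscle covariate (adjusted p = 0.0711). Slc25a20, the carnitine carrier of the inner membrane, rose by 0.59 ± 0.21 on the log2 scale (edgeR adjusted p = 0.0282). This call was lost without any 1 of CAC 2, CAC 4, CAC 5, CAC_F 1, CAC_F 3 or CAC_F 4, with adjusted p-values of 0.0503 to 0.0683. It was also lost with only these groups in the fit (0.101), without CAC 2 and CAC_FPL 3 (0.0582), and with the smooth muscle (0.0859) or general epithelial covariate (0.0802). Both also had positive log2 fold changes against CAC in CAC_FP. That of Acsl5 was 0.66 ± 0.16, called except with the smooth muscle covariate (0.46, edgeR adjusted p = 0.146). That of Slc25a20 was 0.45 ± 0.21, not called except under 2 of 22 alternatives.

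Cpt1a makes the acylcarnitine at the outer membrane and is the regulated entry step of the pathway for long chains. It had 25.4 to 35.5 (median 30.1) FPKM in CAC_FPL, 32.6, 30.7, 26, 44.6 and 32.2 FPKM in CAC_FP and 33.4, 24.3, 36.9, 38.7 and 32.5 FPKM in CAC_F. Cpt1a had 36.3, 24.4, 35.8, 23.9 and 26.7 FPKM in CAC and 22.6 to 30.7 (median 28.7) FPKM in NC. All 5 groups overlapped. The log2 fold change of Cpt1a in CAC_F against CAC was 0.09 ± 0.16, edgeR adjusted p = 0.682, and it was called in none of the 7 comparisons. Cpt2, the inner-membrane partner, differed by 0.15 ± 0.18 and was not called.

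Acsl1, the synthetase of fat, heart and liver, had a pattern of its own. In CAC_FPL the 6 libraries had 18.9, 6.86, 4.13, 4.23, 3.59 and 21.4 FPKM. Acsl1 had 5.13, 3.44, 3.71, 2.77 and 4.21 FPKM in CAC_FP and 3.74, 4.64, 2.22, 3.18 and 3.47 FPKM in CAC_F, against 2.63, 2.29, 3.01, 2.66 and 3.7 FPKM in CAC and 3.23 to 9.03 (median 3.7) FPKM in NC. CAC_FPL 1 and CAC_FPL 6 stood above all other libraries, which reached at most 9.03 FPKM, and they were also the libraries with the highest adipocyte marker sums given above. Acsl1 was higher in CAC_FPL than in CAC_F (log2 fold change 1.52 ± 0.41, edgeR adjusted p = 0.0211) and than in CAC (log2 fold change 1.7 ± 0.41, edgeR adjusted p = 0.0403). Without CAC_FPL 1 and CAC_FPL 6 these log2 fold changes were 0.47 (edgeR adjusted p = 0.309) and 0.67 (edgeR adjusted p = 0.277). The call against CAC_F was lost without CAC_FPL 1, CAC_F 1 or CAC_F 2 alone (adjusted p = 0.0506 to 0.0741), with voom or limma on log2 FPKM (0.0545 to 0.0582), with the replicate block (0.0593), with only these groups (0.136) and without CAC_F 1 and CAC_F 2 (0.141). The call against CAC was lost without CAC_FPL 1, CAC_FPL 6, CAC 1, CAC 3, CAC 4 or CAC 5 alone (adjusted p = 0.0672 to 0.124), without the filter on low values (0.0732), with voom or limma on log2 FPKM (0.0566 to 0.091), with the replicate block (0.127) and with only these groups (0.195).

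The acyl-CoA dehydrogenases take the first oxidising step and hand electrons to the flavoproteins Etfa and Etfb, and Etfdh passes them on to the respiratory chain. In CAC_F against CAC, 1 of these 7 members rose and 3 fell, beside 19.0% and 20.2% of all tested genes. Acadl had 74.5 to 106 (median 86.7) FPKM in CAC_FPL, 124, 97.8, 95.7, 81.5 and 97.1 FPKM in CAC_FP and 132, 99.2, 105, 156 and 101 FPKM in CAC_F. Acadl had 72.3, 79.8, 59.1, 53.1 and 57.5 FPKM in CAC and 53.1 to 68.7 (median 64.9) FPKM in NC. Every CAC_F library lay above every CAC and NC library. Acadl rose in CAC_F (log2 fold change 0.82 ± 0.14, edgeR adjusted p = 0.000151) and in CAC_FP (log2 fold change 0.55 ± 0.14, edgeR adjusted p = 0.01), both against CAC and both called under every alternative. The CAC_FPL median lay between those of CAC_F and CAC. Acadl was lower in CAC_FPL than in CAC_F (log2 fold change -0.43 ± 0.13, edgeR adjusted p = 0.0347), a call lost without any 1 of CAC_FPL 1, CAC_FPL 2, CAC_FPL 3, CAC_F 1 or CAC_F 4 (adjusted p = 0.069 to 0.0981) and under 6 other alternatives (0.0578 to 0.154). Against CAC the CAC_FPL value was 0.39 ± 0.13 and was not called (edgeR adjusted p = 0.12), except under 1 of 24 alternatives.

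Acadm, the medium-chain dehydrogenase and a textbook PPARα target, moved the other way. It had 18.4 to 41 (median 29.2) FPKM in CAC_FPL, 24.2, 16.7, 21.1, 34.6 and 21 FPKM in CAC_FP and 12.7, 13.6, 20.6, 17.2 and 13.9 FPKM in CAC_F. Acadm had 33.3, 23.5, 29, 31.2 and 30.3 FPKM in CAC and 26 to 40.7 (median 33) FPKM in NC. CAC_F lay wholly below CAC and NC. Acadm fell in CAC_F against CAC (log2 fold change -1.01 ± 0.21, edgeR adjusted p = 0.000686), called under every alternative, and was higher in CAC_FPL than in CAC_F (log2 fold change 0.93 ± 0.20, edgeR adjusted p = 0.0098). The second call was lost when CAC_F 1 and CAC_F 2 were both left out (adjusted p = 0.141) and when only these 2 groups were fitted (adjusted p = 0.102). In CAC_FP against CAC the value was -0.41 ± 0.20 (adjusted p = 0.151), which was called without CAC_FP 4 (adjusted p = 0.0418).

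Acads, the short-chain dehydrogenase that acts on butyrate, also fell in CAC_F against CAC (-1.0 ± 0.26 on the log2 scale, edgeR adjusted p = 0.00471), with 30.5 to 65.2 FPKM in CAC_F and 78.2 to 127 FPKM in CAC and no overlap. Etfb fell by 0.46 on the log2 scale (edgeR adjusted p = 0.0356). The Etfb call was lost without any 1 of CAC 1, CAC 3, CAC 4, CAC_F 1, CAC_F 2 or CAC_F 5 (adjusted p = 0.05 to 0.145). It was also lost without the filter on low values (0.122), with limma on log2 FPKM (0.0963 and 0.0964), with only these groups in the fit (0.0707), without CAC_F 1 and CAC_F 2 (0.21) and with the smooth muscle covariate (0.181). Etfa, at -0.36 ± 0.15 and an edgeR adjusted p of 0.0626, was called under 6 of 23 alternatives. Among these were the fits without CAC 2 (adjusted p = 0.047) and without CAC_F 3 (adjusted p = 0.00963). Acadvl, the very-long-chain dehydrogenase of the inner membrane, and Etfdh differed by -0.34 ± 0.16 and -0.04 ± 0.12 and were not called. Under 2 of 23 alternatives Acadvl was called. As a ratio of FPKM within a library, a description chosen after the values were seen, Acadm over Acadl ranged from 0.195 to 0.504 in CAC_FPL, 0.171 to 0.425 in CAC_FP, 0.096 to 0.195 in CAC_F, 0.295 to 0.587 in CAC and 0.45 to 0.592 in NC. CAC_F and CAC did not overlap in this ratio, which follows from the non-overlap of Acadl and of Acadm given above and adds no further result.

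The promoters of Acadl and Acadm are shown because these neighbours in the pathway were called in opposite directions. They run from 250 bases before to 50 after the start site and are taken from RefSeq on GRCm38.p6, at chr1:66863260-66863559 for Acadl and chr3:153944594-153944893 for Acadm, both on the minus strand and printed 5′ to 3′. Capitals mark AGGTCA, the core hexamer of nuclear receptor sites, searched on both strands.
Acadl: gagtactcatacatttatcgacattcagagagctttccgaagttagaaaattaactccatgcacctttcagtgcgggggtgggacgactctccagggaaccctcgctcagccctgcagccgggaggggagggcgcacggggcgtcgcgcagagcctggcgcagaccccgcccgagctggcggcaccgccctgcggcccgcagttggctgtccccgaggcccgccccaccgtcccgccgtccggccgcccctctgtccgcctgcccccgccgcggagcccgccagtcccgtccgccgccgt
Acadm: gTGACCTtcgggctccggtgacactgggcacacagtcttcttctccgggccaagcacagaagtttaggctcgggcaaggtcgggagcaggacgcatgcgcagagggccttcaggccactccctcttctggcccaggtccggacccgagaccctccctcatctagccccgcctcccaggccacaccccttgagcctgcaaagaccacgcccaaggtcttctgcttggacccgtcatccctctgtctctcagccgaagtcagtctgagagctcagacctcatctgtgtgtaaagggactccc
The hexamer was found in Acadm, on the opposite strand at position -249 from the start site, and these letters were not in the Acadl window. Of the 32 members, 28 had a promoter in the RefSeq table, and 7 held the hexamer (Acadm, Acadvl, Cpt1a, Echs1, Fabp1, Plin2 and Pparg), against 16.3% of all 32851 promoters of that length. A direct repeat of AGGTCA with 1 base between the copies, the classical PPAR element, was in none of the 28 and in 0.0396% of all promoters. A match is a description of letters and not a binding site.

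**Figure D2:**
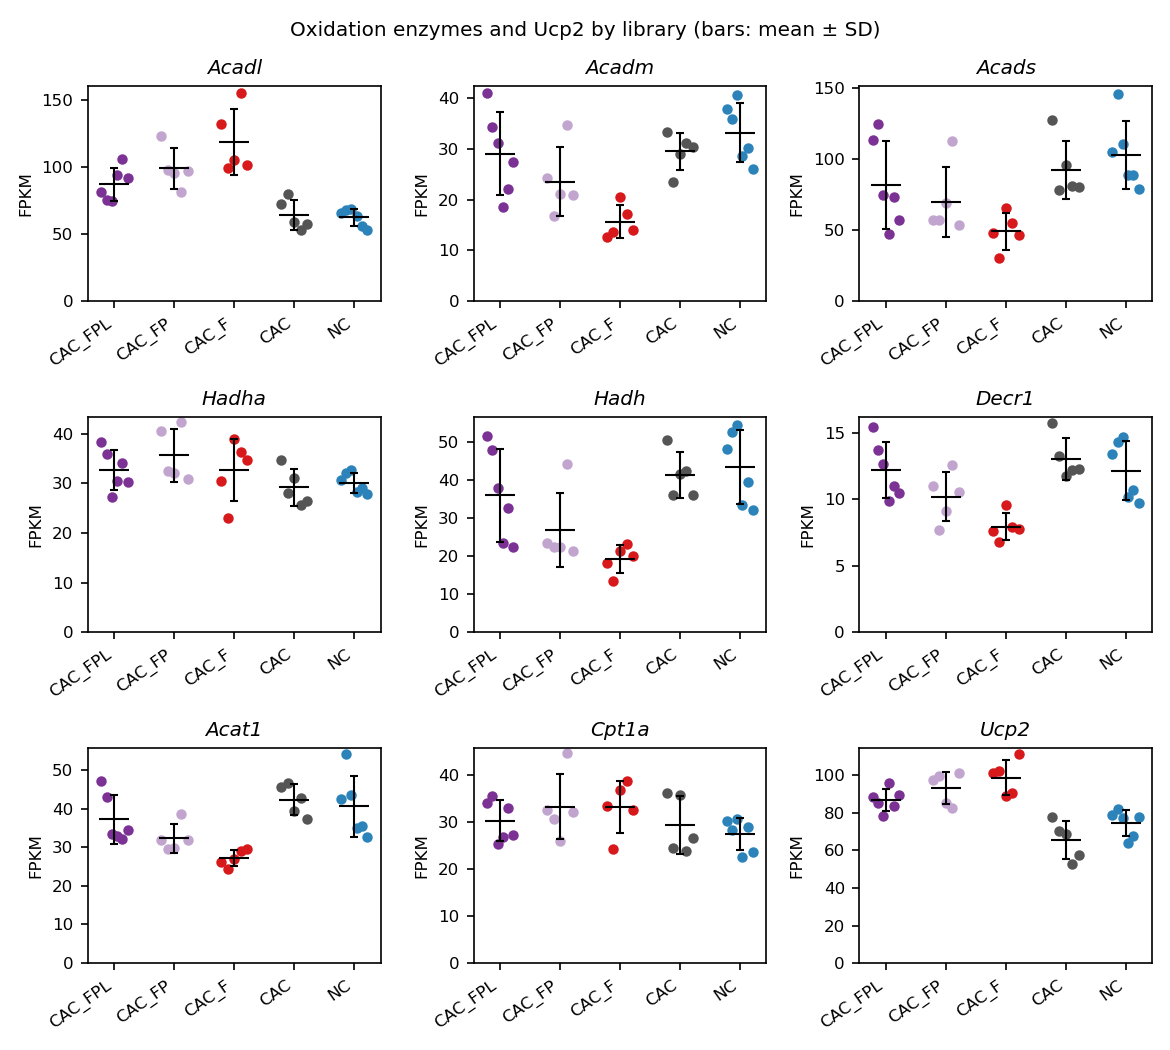
FPKM of 8 enzymes and Ucp2 in every library, with groups from CAC_FPL at the left to NC at the right and black bars for the mean ± SD. Acadl and Ucp2 are highest in CAC_F and CAC_FP, whereas Acadm, Acads, Hadh, Decr1 and Acat1 are lowest in CAC_F, and Hadha and Cpt1a overlap in all groups.

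Hydratases, hydroxyacyl-CoA dehydrogenases and thiolases complete each round. Of these 7 members 4 fell in CAC_F against CAC and none rose, beside 20.2% and 19.0% of all tested genes. Hadha and Hadhb encode the α and β subunits of the trifunctional protein, which carries out the last steps on long chains. Hadha had 27.3 to 38.4 (median 32.3) FPKM in CAC_FPL, 40.6, 32.5, 32.1, 42.4 and 31 FPKM in CAC_FP and 30.5, 23, 39, 36.3 and 34.7 FPKM in CAC_F. Hadha had 34.8, 28.1, 31.1, 25.6 and 26.4 FPKM in CAC and 27.8 to 32.7 (median 29.9) FPKM in NC. All groups overlapped. The log2 fold changes in CAC_F against CAC were 0.08 ± 0.13 for Hadha and -0.23 ± 0.14 for Hadhb, and neither subunit was called in any of the 7 comparisons. The promoters of both genes lie head to head. Hadha's, at chr5:30154931-30155230 on the minus strand of GRCm38.p6 (RefSeq), is printed with the 228 bases it shares with the Hadhb promoter window in capitals, and the start sites are 273 bases apart.
Hadha: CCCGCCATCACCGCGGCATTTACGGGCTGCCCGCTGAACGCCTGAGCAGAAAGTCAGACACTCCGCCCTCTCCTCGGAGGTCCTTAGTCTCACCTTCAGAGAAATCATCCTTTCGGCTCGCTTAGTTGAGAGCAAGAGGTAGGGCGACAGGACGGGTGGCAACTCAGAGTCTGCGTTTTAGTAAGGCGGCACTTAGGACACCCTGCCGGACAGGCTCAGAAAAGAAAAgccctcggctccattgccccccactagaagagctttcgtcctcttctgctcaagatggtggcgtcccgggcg

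Echs1, the short-chain enoyl-CoA hydratase, had 9.72 to 17.3 (median 13.6) FPKM in CAC_FPL, 10.0, 8.91, 12.4, 14.8 and 10.3 FPKM in CAC_FP and 8.82, 9.45, 9.7, 9.43 and 8.8 FPKM in CAC_F. Echs1 had 18.9, 14.3, 15.6, 14.4 and 13.4 FPKM in CAC and 12.6 to 19.2 (median 15.7) FPKM in NC. The CAC_F libraries lay within 1 FPKM of each other and below all of CAC. Paox, at 3.94 FPKM on average, overlaps Echs1 (13.2 FPKM) on the opposite strand, and the strand setting of the counting is not known. Echs1 fell in CAC_F (log2 fold change -0.81 ± 0.16, edgeR adjusted p = 0.000441) and in CAC_FP (log2 fold change -0.53 ± 0.16, edgeR adjusted p = 0.0227), both against CAC. The CAC_FP call was lost without any 1 of CAC 1, CAC_FP 1, CAC_FP 2 or CAC_FP 5 (adjusted p = 0.0505 to 0.0773) and without the filter on low values (0.0707). Hadh, the medium- and short-chain hydroxyacyl-CoA dehydrogenase, fell by 1.18 on the log2 scale in CAC_F against CAC (edgeR adjusted p = 0.000695), the largest drop among the enzymes of the oxidation round. It had 13.4 to 23.3 FPKM in CAC_F and 36.1 to 50.7 FPKM in CAC. Hadh also fell in CAC_FP against CAC (log2 fold change -0.71 ± 0.24, edgeR adjusted p = 0.0411), a call lost without any 1 of CAC 1, CAC 3, CAC 4, CAC 5, CAC_FP 1, CAC_FP 2, CAC_FP 3 or CAC_FP 5 (adjusted p = 0.0581 to 0.104), without the filter on low values (0.103) and with the smooth muscle covariate (0.112).

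Acaa1a, a thiolase of peroxisomes, had 14.1 to 23.4 (median 15.4) FPKM in CAC_FPL, 15.8, 12.8, 16.2, 21.4 and 14.5 FPKM in CAC_FP and 9.96, 8.97, 15.6, 12.1 and 10.9 FPKM in CAC_F. Acaa1a had 22.9, 13.9, 20.2, 20.3 and 18.3 FPKM in CAC and 14.1 to 23.7 (median 18.4) FPKM in NC. Only CAC_F 3 reached the range of CAC. Acaa1a fell in CAC_F against CAC (log2 fold change -0.82 ± 0.18, edgeR adjusted p = 0.0014). Its value is uncertain in that Acaa1b is a near copy and Myd88, at 19.4 FPKM on average, overlaps it on the opposite strand, while the sources used here do not give the strand setting of the counting. Ehhadh, the bifunctional peroxisomal enzyme, fell too (log2 fold change -0.79 ± 0.25, edgeR adjusted p = 0.014), a call lost without CAC_F 1 and CAC_F 2 (adjusted p = 0.062) and with the smooth muscle covariate (adjusted p = 0.177). Acaa2, the mitochondrial thiolase, differed by -0.3 ± 0.24 and was not called.

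Eci1, Eci2 and Decr1 prepare unsaturated chains for oxidation. All 3 passed in CAC_F against CAC, 2 lower and 1 higher, beside 39.1% of all tested genes. Decr1, the dienoyl-CoA reductase, had 9.87 to 15.4 (median 11.8) FPKM in CAC_FPL, 11, 7.69, 9.11, 12.5 and 10.5 FPKM in CAC_FP and 7.63, 6.76, 9.56, 7.89 and 7.78 FPKM in CAC_F. Decr1 had 15.7, 13.2, 11.7, 12.2 and 12.3 FPKM in CAC and 9.67 to 14.6 (median 12) FPKM in NC. Every CAC_F library was below every CAC library. Decr1 fell (log2 fold change -0.8 ± 0.15, edgeR adjusted p = 0.000344), as did the mitochondrial isomerase Eci1 (log2 fold change -0.85 ± 0.20, edgeR adjusted p = 0.00222). Eci2, an isomerase found in mitochondria and peroxisomes, rose (log2 fold change 0.6 ± 0.19, edgeR adjusted p = 0.0127). In CAC_FP against CAC Decr1 had a log2 fold change of -0.44 ± 0.15 (edgeR adjusted p = 0.0414), a call lost without any 1 of 8 libraries, namely CAC 1, CAC 3, CAC 4, CAC 5, CAC_FP 1, CAC_FP 2, CAC_FP 3 and CAC_FP 5 (adjusted p = 0.0547 to 0.136). It was also lost without the filter on low values (0.129), with limma on log2 FPKM (0.0762 and 0.0765), in a fit of only CAC_FP and CAC (0.0532) and with the smooth muscle covariate (0.207).

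The ketone body enzymes differed from each other. Acat1 condenses acetyl-CoA at the start of ketogenesis and splits acetoacetyl-CoA in ketone use. It had 32 to 47 (median 34) FPKM in CAC_FPL, 31.8, 29.6, 29.7, 38.6 and 31.8 FPKM in CAC_FP and 26.2, 24.3, 26.9, 29 and 29.5 FPKM in CAC_F. Acat1 had 45.7, 46.6, 39.3, 42.8 and 37.2 FPKM in CAC and 32.6 to 54.2 (median 39) FPKM in NC. CAC_F lay below all libraries of the other 4 groups. Acat1 fell in CAC_F against CAC (log2 fold change -0.71 ± 0.13, edgeR adjusted p = 0.000217) and in CAC_FP against CAC (log2 fold change -0.47 ± 0.13, edgeR adjusted p = 0.0142). The CAC_FP call was lost with the smooth muscle covariate (adjusted p = 0.134) and without the filter on low values (adjusted p = 0.0543). Bdh1, which interconverts acetoacetate and β-hydroxybutyrate, had 26.6 to 49.2 (median 36.8) FPKM in CAC_FPL, 30.5, 31.2, 40.9, 49.2 and 27.7 FPKM in CAC_FP and 26.9, 20.6, 42, 30.5 and 27.7 FPKM in CAC_F. Bdh1 had 42.8, 41.6, 37.9, 27.3 and 27.2 FPKM in CAC and 31.5 to 52.4 (median 34.7) FPKM in NC. These ranges overlapped in all groups, and Bdh1 was not called in CAC_F against CAC (log2 fold change -0.33 ± 0.20, edgeR adjusted p = 0.192) except with the general epithelial markers as a covariate (-0.56, adjusted p = 0.00298).

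Among the binding, storage and signalling targets of PPARs, 3 rose and 1 fell of 5 tested in CAC_F against CAC. Of all tested genes 19.0% rose and 20.2% fell. Fabp2, the fatty acid carrier of enterocytes, had 17.9 to 274 (median 129) FPKM in CAC_FPL, 129.7, 76.5, 114, 94.4 and 53.1 FPKM in CAC_FP and 44.3, 2.99, 26.4, 51.6 and 48.1 FPKM in CAC_F. Fabp2 had 142, 68.2, 204, 229.8 and 144 FPKM in CAC and 157 to 359 (median 255) FPKM in NC. All CAC_F libraries lay below all CAC libraries, with CAC_F 2 lowest, and the CAC_FPL libraries spread widest. Fabp2 fell in CAC_F against CAC (log2 fold change -2.28 ± 0.60, edgeR adjusted p = 0.0048), a call lost with the smooth muscle covariate (adjusted p = 0.088). CAC_F 2 also had the lowest sum of absorptive colonocyte markers, 2078 FPKM, and without it Fabp2 was still called. The remaining CAC_F sums were 4558 to 6532 FPKM, against 3698 to 8333 FPKM in CAC. CAC_FPL 3 and CAC 2, set apart above by Hox genes, were lowest in Fabp2 in their groups, at 17.9 and 68.2 FPKM. Small intestine markers (9 genes, Sis among them) summed to 198 and 195 FPKM in CAC_FPL 4 and CAC_FPL 5, the highest of their group in Fabp2. The sum was 19.7 FPKM in CAC_F 2, and 28.5 to 84.9 FPKM in NC, where the Fabp2 median was highest. The part of absorptive colonocytes and of the position along the gut in the Fabp2 result was not tested. Fabp1, its liver relative, had at most 5.55 FPKM (237 counts, in CAC_FP 1), 33 counts or fewer in the other 26 libraries and 0 counts in 9, so it was not compared.

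The Fabp1 and Fabp2 promoters are printed because Fabp1, at the least abundant end of the 32, was the only member with a match to the relaxed repeat, AGGNCA copied after 1 base, on the minus strand at position -67. That pattern was in 0.381% of all promoters, and a second AGGTCA hexamer of Fabp1, at -9, is in lower case. Capitals mark the match in Fabp1, at chr6:71199629-71199928, and Fabp2, at chr3:122894822-122895121, held neither this pattern nor the hexamer. Both are on the plus strand of GRCm38.p6 (RefSeq).
Fabp1: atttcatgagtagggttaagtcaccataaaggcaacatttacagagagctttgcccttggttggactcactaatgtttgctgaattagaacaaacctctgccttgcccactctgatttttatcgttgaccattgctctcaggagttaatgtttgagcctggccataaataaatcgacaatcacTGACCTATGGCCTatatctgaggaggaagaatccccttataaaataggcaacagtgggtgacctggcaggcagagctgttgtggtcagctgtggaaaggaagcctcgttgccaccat
Fabp2: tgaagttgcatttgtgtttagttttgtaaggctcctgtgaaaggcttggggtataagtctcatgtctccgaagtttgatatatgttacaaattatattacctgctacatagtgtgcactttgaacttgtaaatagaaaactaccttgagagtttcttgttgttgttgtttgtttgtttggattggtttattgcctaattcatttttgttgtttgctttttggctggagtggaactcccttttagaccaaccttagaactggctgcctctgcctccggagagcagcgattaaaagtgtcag

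Plin2, which coats lipid droplets, had 25.2 to 50.2 (median 30.8) FPKM in CAC_FPL, 63, 31.7, 44.9, 31.8 and 41.5 FPKM in CAC_FP and 25.8, 46, 42.2, 34.5 and 44.3 FPKM in CAC_F. Plin2 had 22.7, 22.4, 19.4, 19.4 and 22.7 FPKM in CAC and 17 to 24.9 (median 20.5) FPKM in NC. Every library given FOLFOX lay above every CAC library. Plin2 rose in CAC_F (log2 fold change 0.76 ± 0.18, edgeR adjusted p = 0.00192) and CAC_FP (log2 fold change 0.92 ± 0.18, edgeR adjusted p = 0.00258) against CAC. The CAC_FPL value was 0.56 ± 0.17 (edgeR adjusted p = 0.081) and was not called, except under 2 of 24 alternatives. Non-overlap of this kind, higher in FOLFOX than in CAC, was seen in 5 members for CAC_F (11.2% of all genes), 3 for CAC_FP (5.68%) and 2 for CAC_FPL (1.05%). In CAC_FP the libraries with adipocyte marker sums of 434, 273 and 197 FPKM had 63, 44.9 and 41.5 FPKM of Plin2. Those with sums of 3.61 and 2.73 FPKM had 31.7 and 31.8 FPKM. In CAC_FPL, CAC_FPL 6 and CAC_FPL 1 were highest in Plin2 and in these markers. In CAC_F the sums were 2.69, 169, 61.1, 2.89 and 9.13 FPKM, in the order of the Plin2 values above. NC 3 and NC 1, with sums of 308 and 235 FPKM, had 24.9 and 21.6 FPKM of Plin2, and NC 5, with 3.2 FPKM, had 22.6 FPKM. CAC 5, with a sum of 76.4 FPKM, had about as much Plin2 as CAC 1, with 2.91 FPKM. The part of adipocytes was not tested.

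Ucp2, a carrier of the inner mitochondrial membrane, had 78.3 to 95.8 (median 87) FPKM in CAC_FPL, 97.4, 99.5, 85.5, 82.4 and 101 FPKM in CAC_FP and 101, 102, 88.8, 90.5 and 112 FPKM in CAC_F. Ucp2 had 78, 70.4, 69, 52.9 and 57.3 FPKM in CAC and 64.1 to 82.2 (median 77.7) FPKM in NC. All 16 libraries given FOLFOX exceeded all 5 CAC libraries. Ucp2 rose in CAC_F (log2 fold change 0.52 ± 0.10, edgeR adjusted p = 0.000343) and CAC_FP (log2 fold change 0.43 ± 0.10, edgeR adjusted p = 0.00544) against CAC, and both were called under every alternative. In CAC_FPL against CAC it was 0.35 ± 0.09, just outside the threshold (edgeR adjusted p = 0.0531) and called by DESeq2 (adjusted p = 0.00405). It was called there under 10 of 24 alternatives, among them the edgeR fits without any 1 of CAC 1, CAC 2 or CAC_FPL 3 (adjusted p = 0.0294 to 0.0385).

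Angptl4, a secreted inhibitor of lipoprotein lipase, had 0.53 to 48.7 (median 7.36) FPKM in CAC_FPL, 53.8, 12.6, 26.2, 2.96 and 29.6 FPKM in CAC_FP and 7.22, 31.8, 10.9, 8.78 and 17.6 FPKM in CAC_F. Angptl4 had 1.99, 1.53, 0.74, 0.74 and 6.17 FPKM in CAC and 0.14 to 1.35 (median 0.3) FPKM in NC. All CAC_F libraries lay above all CAC libraries, while CAC_FPL and CAC_FP spread widely. Angptl4 rose in CAC_F (log2 fold change 2.66 ± 0.94, edgeR adjusted p = 0.0285) and CAC_FP (log2 fold change 3.39 ± 0.97, edgeR adjusted p = 0.0195) against CAC. Adipocyte markers went with it in some libraries and not in others. Their summed FPKM was 434, 3.61, 273, 2.73 and 197 in CAC_FP, 2.69, 169, 61.1, 2.89 and 9.13 in CAC_F, and 2.91, 2.79, 4.38, 4.1 and 76.4 in CAC, in the order of the Angptl4 values. The library with the most Angptl4 was also the one with the highest sum in each of these 3 groups, and CAC_F 1 and CAC_F 4, with low sums, had more Angptl4 than any CAC library. In CAC_FPL, CAC_FPL 6 had 48.7 FPKM of Angptl4 and a sum of 884 FPKM. CAC_FPL 1, with a sum of 940 FPKM, had 7.36 FPKM, as had CAC_FPL 5 with a sum of 4.12 FPKM. NC 3 and NC 1, with sums of 308 and 235 FPKM, had 1.35 and 1.24 FPKM of Angptl4. The part of adipocytes in the Angptl4 result was not tested. The CAC_F call was lost without any 1 of CAC 1, CAC 2, CAC 3, CAC 4 or CAC_F 2 (adjusted p = 0.0543 to 0.0754), without the filter on low values (0.0536) and without CAC_F 1 and CAC_F 2 (0.0915), and the CAC_FP call without CAC 4 (adjusted p = 0.0547). Pdk4, the kinase that turns off pyruvate dehydrogenase, had 0.41 to 19.7 (median 5.31) FPKM in CAC_FPL, 25.3, 4.78, 4.35, 4.9 and 13.7 FPKM in CAC_FP and 4.12, 10.7, 12.2, 9.05 and 8.72 FPKM in CAC_F. Pdk4 had 4.72, 1.65, 4.27, 3.82 and 6.08 FPKM in CAC and 2.09 to 3.63 (median 2.74) FPKM in NC. CAC_F and CAC overlapped, and Pdk4 was not called (log2 fold change 1.01 ± 0.61, edgeR adjusted p = 0.19). It was called with only these groups in the fit (edgeR adjusted p = 0.0461), with the smooth muscle covariate (0.0165) and with the general epithelial covariate (0.0402). CAC_FP 1 and CAC_FPL 6, highest in Pdk4, had adipocyte marker sums of 434 and 884 FPKM. CAC_FPL 1, with 940 FPKM, had 5.31 FPKM of Pdk4, and the part of adipocytes was not tested.

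**Figure D3:**
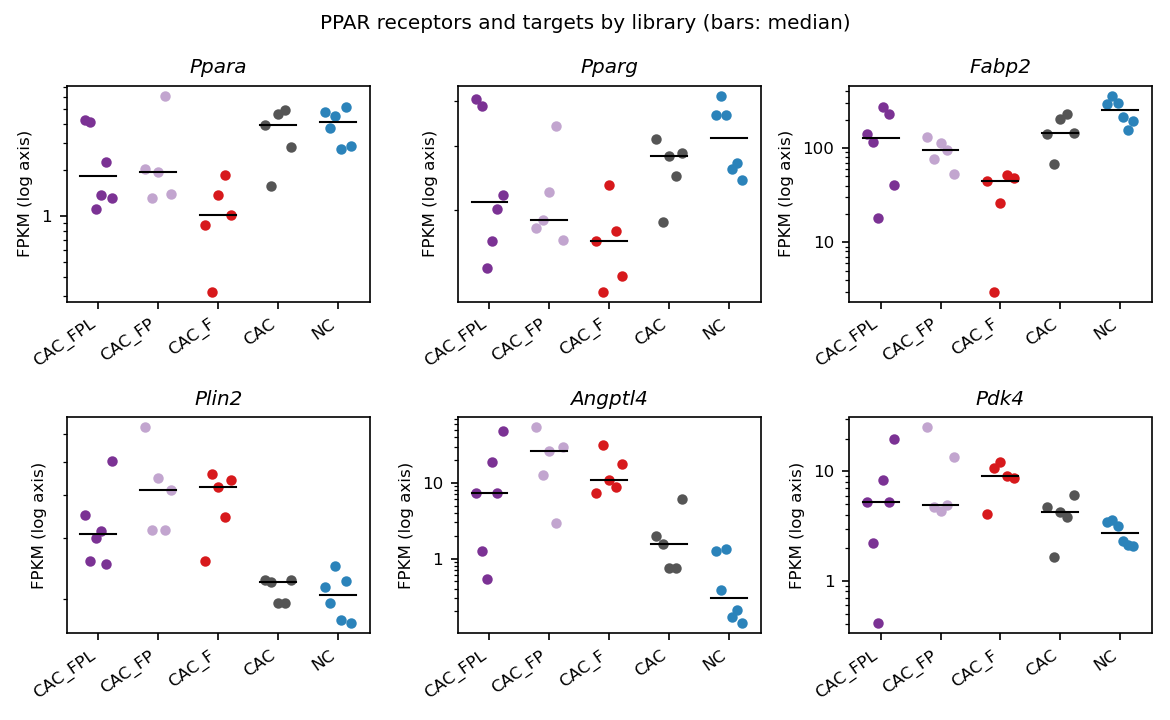
FPKM of the receptors Ppara and Pparg and of 4 targets in every library on a log axis, with black bars for the group median and groups from CAC_FPL to NC. Fabp2 is lowest in CAC_F 2 at 2.99 FPKM, whereas Plin2 and Angptl4 are higher in the CAC_F libraries than in the CAC libraries.

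Cell type markers moved in the same comparison, in which 19.0% of all tested genes were called higher and 20.2% lower. In CAC_F against CAC, 9 of 10 smooth muscle markers were lower, with sums of 615 to 1177 FPKM in CAC_F and 1265 to 5257 FPKM in CAC. Of the tested neutrophil markers 3 of 6 were higher (sums of 289.7 to 1007 FPKM in CAC_F and 9.03 to 125 FPKM in CAC). Most of the CAC_F sum was Ly6g (279 to 989 FPKM in CAC_F and 2.2 to 96.9 FPKM in CAC), while Retnlg averaged 3.7 FPKM in CAC_F and 5.0 FPKM in CAC, and Csf3r 2.02 FPKM in CAC_F and 2.31 FPKM in CAC, neither called. Of the macrophage markers 5 of 9 were higher (633 to 1312 FPKM in CAC_F and 273 to 733 FPKM in CAC). Goblet cell markers were lower for 4 of 8 (548 to 3630 FPKM in CAC_F and 4388 to 10681 FPKM in CAC). By contrast 2 of 9 general epithelial markers were higher (3884 to 6025 FPKM in CAC_F and 3266 to 5110 FPKM in CAC) and 1 of 11 absorptive colonocyte markers was lower (2078 to 6532 FPKM in CAC_F and 3698 to 8333 FPKM in CAC). None of 6 adipocyte markers was called, with positive log2 fold changes for 6 (2.69 to 169 FPKM in CAC_F and 2.79 to 76.4 FPKM in CAC). Hepatocyte markers summed to at most 9.37 FPKM in either group. Genes encoded in the mitochondrial genome took 4.01% to 5.33% of counts in CAC_F and 5.44% to 11.7% in CAC, without overlap. With the smooth muscle markers as a covariate 15 members were called, 6 higher and 9 lower, beside 29.4% of all tested genes. With the general epithelial markers 23 members were called, beside 42.7%. The smooth muscle sums did not overlap between CAC_F and CAC, so this covariate and the group difference cannot be fully told apart. Without CAC_F 1 and CAC_F 2, 16 members were called, beside 26.5% of all tested genes. The part of the other cell types and of the mitochondrially encoded share in the result was not tested.

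Other genes of the pathway were taken from 8 lists and compared in CAC_F against CAC. There 39.1% of all tested genes were called, 19.0% higher and 20.2% lower, which is the background for each list. Of 13 tested genes of uptake and activation 2 rose and 7 fell. Acss1, the mitochondrial acetyl-CoA synthetase, fell by 2.04 on the log2 scale (edgeR adjusted p = 3.67e-05), and Acsl4, which activates arachidonic acid, rose by 1.54 ± 0.29. Of 14 further carnitine and mitochondrial oxidation genes 2 rose and 5 fell, and Acad10, an acyl-CoA dehydrogenase family member, was lower (-1.3 ± 0.20). Of 19 peroxisomal genes 1 rose (Acox2, the branched-chain and bile acid oxidase, 2.2 ± 0.63) and 8 fell. Of 6 ketone genes tested 1 rose and 2 fell, Oxct1, the enzyme of ketone body use, being lower (-0.6 ± 0.15). Of 13 PPAR partners and coregulators none rose and 4 fell, with Ppargc1a, the coactivator PGC-1α, at -1.68 ± 0.36 and Rxrb, a receptor partner, at -0.58 ± 0.11.

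Of the 12 tested genes among 20 other PPAR targets 4 rose and 1 fell, beside 19.0% and 20.2% of all tested genes. Creb3l3, a transcription factor of lipid metabolism, rose by 3.68 ± 0.74 and Vnn1, a pantetheinase, by 2.57 ± 0.72, whereas Pck1, of gluconeogenesis and glyceroneogenesis, fell (-2.97 ± 0.46 on the log2 scale, edgeR adjusted p = 8.12e-05). Of 18 mitochondrial genes, of the citrate cycle, the respiratory chain and, in Tfam, Vdac1 and Tomm20, other roles, 2 rose and 6 fell. Suclg1, a citrate cycle subunit, was lower (-0.7 ± 0.17), and Tomm20, of the mitochondrial import pore, higher (0.68 ± 0.14). Of 10 genes of fatty acid synthesis none rose and 2 fell. Of 29 called genes of these lists that the naming rule took, 17 were called in this comparison under every alternative that kept them and 12 were lost under at least 1. The 12 given here with values are among the 17.

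Adding the probiotic complex to FOLFOX gave no called member in CAC_FP against CAC_F, where edgeR called 0.0% of tested genes. DESeq2 called 0 members too but 1.58% of tested genes, 118 higher and 120 lower. Without CAC_F 3 edgeR called 365 genes higher and 251 lower (4.08%), still with 0 members. In the full comparison 6 members had an unadjusted p below 0.05, beside 15.9% of all tested genes. The log2 fold change was positive for 26 of the 31 members, with a median of 0.281, against -0.00376 for all genes. Acadm, at 0.59 ± 0.20 (edgeR adjusted p = 0.177), and Acaa1a, at 0.49 ± 0.18 (edgeR adjusted p = 0.205), had the smallest p. Fabp2 (1.42 ± 0.59) and Acat1 (0.25 ± 0.13) were the 2 members whose CAC_FP libraries all lay above all CAC_F libraries (1.07% of all genes).

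In CAC_FP against CAC, 9 of 31 members passed, 5 higher (Acsl5, Acadl, Plin2, Angptl4 and Ucp2) and 4 lower (Echs1, Hadh, Decr1 and Acat1), beside 18.6% of all tested genes (9.68% higher and 8.9% lower). These were all among the 20 called in CAC_F, but both comparisons use the same CAC libraries, so their match is no independent result. Cell type markers moved here too: 9 of 10 smooth muscle markers were lower (409 to 1245 FPKM in CAC_FP and 1265 to 5257 FPKM in CAC) and 2 of 8 goblet cell markers were lower (1454 to 4090 FPKM in CAC_FP and 4388 to 10681 FPKM in CAC). With the smooth muscle markers as a covariate 7 members were called, 6 higher and 1 lower, beside 9.04% of all tested genes. Acsl5, Hadh, Decr1 and Acat1 were lost, and Eci2 (edgeR adjusted p = 0.0269) and Pdk4 (edgeR adjusted p = 0.0267) were added. The smooth muscle sums did not overlap here either, so this covariate and the group difference cannot be fully told apart. The part of these cell types was not tested. Acads, Hadh, Acat1 and Ppara were each highest in CAC_FP 4, which had 112 FPKM of Acads, against 53.3 to 68.7 FPKM in the other 4. Slc27a2, the fatty acid transporter and very-long-chain synthetase, fell (-3.52 ± 0.69), and Creb3l3 rose (3.6 ± 0.74). The difference between the CAC_FP and CAC_F responses is the CAC_FP against CAC_F comparison given above, in which no member passed.

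Loperamide on top of FOLFOX and probiotics called no member in CAC_FPL against CAC_FP by edgeR (0.0% of tested genes) or by DESeq2 (0.139% of tested genes, 19 higher and 2 lower), and 4 members had an unadjusted p below 0.05 beside 6.6% of all tested genes. The smallest p belonged to Acsl1 (1.36 ± 0.41, edgeR adjusted p = 0.61) and Echs1 (0.31 ± 0.15, edgeR adjusted p = 0.748). Against CAC, CAC_FPL had 1 of 31 members called by edgeR, Acsl1, beside 1.41% of all tested genes. DESeq2 called 3, beside 5.7%. Leaving out 1 library moved the edgeR count between 0 and 2, and the share of all tested genes between 0.153% and 5.29%. Leaving out CAC_FPL 1 and CAC_FPL 6 left 0 (0.796% of all tested genes).

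In CAC_FPL against CAC_F, 10 members were higher and 1 lower of 31, beside 12.2% of all tested genes (7.14% higher and 5.05% lower). Of the cell type markers 1 of 11 absorptive colonocyte and 1 of 8 goblet cell markers were higher, 1 of 6 neutrophil markers was lower, and adipocyte markers summed to 3.06 to 940 FPKM in CAC_FPL and 2.69 to 169 FPKM in CAC_F. Higher were Acsl1, Acadm, Acads, Echs1, Hadh, Acaa1a, Eci1, Decr1, Acat1 and Fabp2, and Acadl was lower. Hadh had 22.4 to 51.7 (median 35.4) FPKM in CAC_FPL, against 18.3, 13.4, 21.4, 23.3 and 19.9 FPKM in CAC_F (log2 fold change 0.93 ± 0.23, edgeR adjusted p = 0.0161). Fabp2 was higher by 1.99 ± 0.58 (edgeR adjusted p = 0.0297) and Decr1 by 0.65 ± 0.14 (edgeR adjusted p = 0.0101). Echs1, Decr1 and Acat1 were the 3 members whose CAC_FPL libraries all lay above all CAC_F libraries (1.41% of all genes). The 11 calls rest on few libraries, and so do the calls over all genes in this comparison. Without CAC_FPL 1 there were 2 members (3.93% of all tested genes), and without CAC_F 2 there were 3 (2.82%). There were 5 without CAC_F 1 (4.07%), without CAC_FPL 2 (4.09%) and without CAC_FPL 1 and CAC_FPL 6 together (6.45%). With only these groups in the fit, or without CAC_F 1 and CAC_F 2, edgeR called no member and 0.0% of tested genes.

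Of the other lists in that comparison, fatty acid synthesis had 8 of 10 genes higher and none lower. Of all tested genes 7.14% were higher and 5.05% lower. Mlxipl, the carbohydrate response factor, was higher by 1.44 ± 0.26 and Acly, the cytosolic source of acetyl-CoA, by 0.88 ± 0.20. The summed FPKM of this list was 158 to 759 in CAC_FPL and 130 to 227 in CAC_F, with the highest sums in CAC_FPL 1 (759 FPKM) and CAC_FPL 3 (683 FPKM). Of the 8 calls in fatty acid synthesis, 2 were left without CAC_FPL 1, CAC_F 1 or CAC_F 2, beside 2.82% to 4.07% of all tested genes. Without CAC_FPL 2, CAC_FPL 3 or CAC_F 4, 3 were left (4.09% to 10.8%). Without CAC_F 5, 4 were left (11.7%), and without CAC_FPL 1 and CAC_FPL 6, 3 (6.45%). Peroxisomal genes had 5 of 19 higher and none lower, with Cat, catalase, at 1.07 ± 0.25, and at 0.59 (edgeR adjusted p = 0.08) without CAC_FPL 1 and CAC_FPL 6. Uptake and activation had 4 of 13 higher and 1 lower. All of these named calls were lost with only the 2 groups in the fit.

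**Figure D4:**
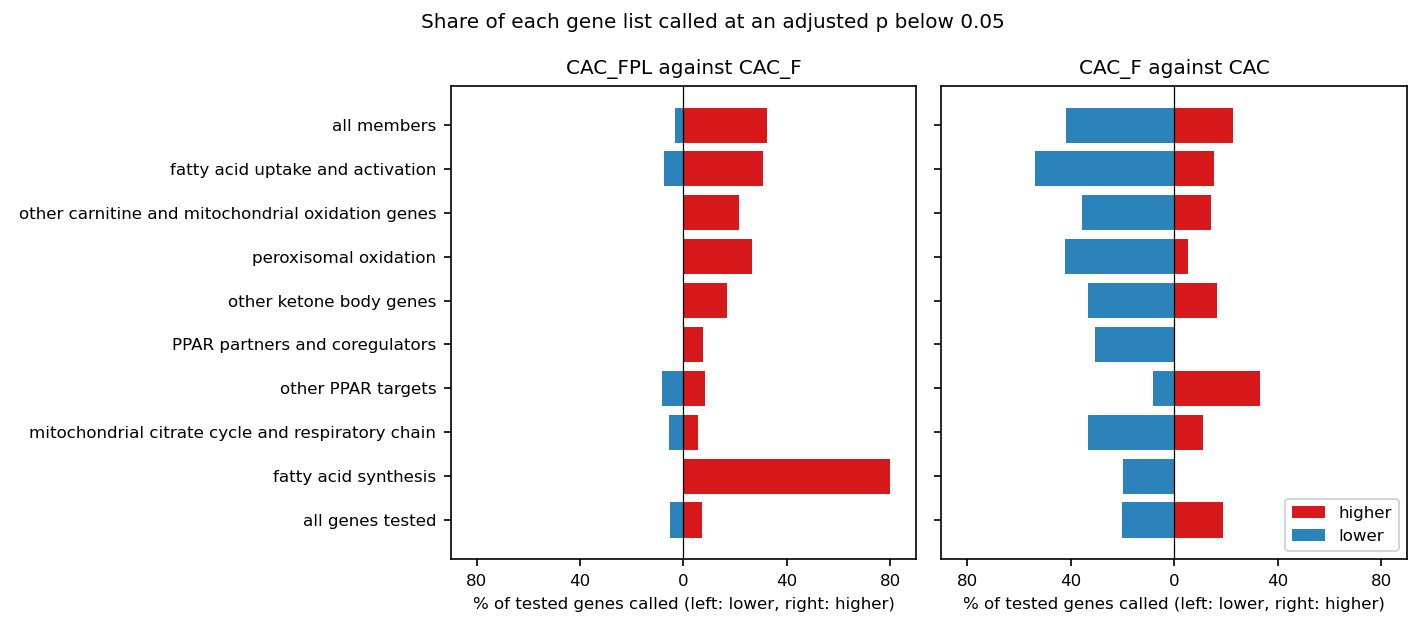
Share of tested genes called lower (blue, to the left) and higher (red, to the right) in the members, 8 other lists of the pathway and all tested genes, for CAC_FPL against CAC_F and CAC_F against CAC. In CAC_F against CAC the members had 13 lower and 7 higher of 31, and in CAC_FPL against CAC_F fatty acid synthesis had 8 of 10 higher.

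**Figure D5:**
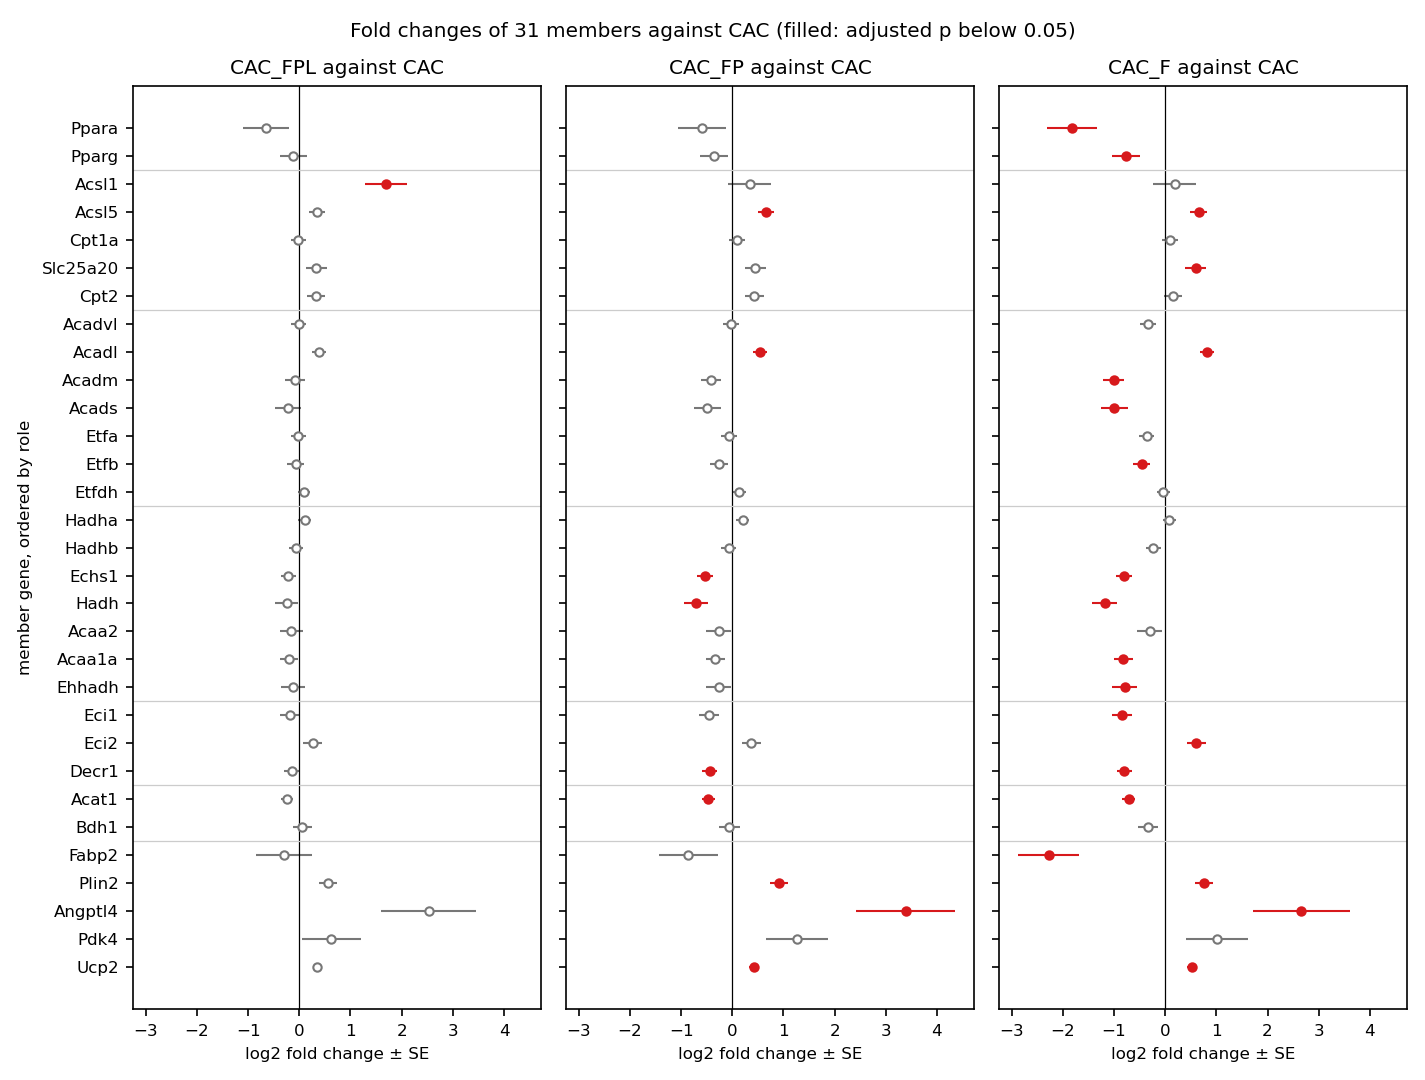
Log2 fold changes ± SE of 31 members in CAC_FPL, CAC_FP and CAC_F, each against CAC, with filled red points at an edgeR adjusted p below 0.05 and the same CAC libraries in all 3 panels. Filled points number 1 in CAC_FPL, 9 in CAC_FP and 20 in CAC_F.

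In CAC against NC no member was called by edgeR, 0 by DESeq2, and 3 had an unadjusted p below 0.05 beside 7.72% of all tested genes, while edgeR called 0.00663% of tested genes (1 gene) and DESeq2 25 genes higher and 16 lower (0.272%). Ucp2 had 78, 70.4, 69, 52.9 and 57.3 FPKM in CAC, against 64.1 to 82.2 (median 77.7) FPKM in NC (log2 fold change -0.26 ± 0.09, edgeR adjusted p = 0.51). Acsl1 had a log2 fold change of -0.86 ± 0.40, edgeR adjusted p = 0.626. The members' median was -0.11, against 0.01 for all genes. An adjusted p above the threshold does not show that the levels were equal.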

How the data were processed

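Colon RNA of 27 libraries in 5 groups was compared. Groups come from the sample labels. The authors deposited raw counts per gene, which were used for tests, and FPKM, which was used for levels. Reads were handled with cutadapt 1.9, FastQC and HISAT2, per the submitters' processing notes. The sources used here give no counting tool, strand setting, genome build or annotation.

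Genes with at least 1 FPKM in at least 5 libraries were tested (15080 of 39971). Counts were scaled by TMM and fitted over all 27 libraries with 1 coefficient per group in edgeR 4.0.16 (R 4.3.3, quasi-likelihood), with Benjamini-Hochberg adjustment over all tested genes and a threshold of 0.05. SE was derived from each fold change and its F statistic. The scripts were tested on simulated data. No 2 replicates agreed within sampling noise.

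The members and lists were chosen with earlier results of these data known. Given for every library were up to 6 members with the smallest adjusted p among those called in each of the 4 main comparisons (2 by unadjusted p where none was called), and 12 fixed members. From each other list, up to 4 called genes could be named, and Ppard always, although some of these genes are not reported here. Alternatives were other filters, median-ratio scaling, DESeq2 1.42.0, limma 3.58.1 (voom, or log2 of FPKM plus 1 or 0.1), a replicate block, only 2 groups, marker covariates and left-out libraries. Leaving out CAC_FPL 1 and CAC_FPL 6 was chosen after seeing the data. Depth was 56687812 to 79709845 counts per library. Promoters came from RefSeq (GRCm38.p6).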

Additional observations from a re-analysis of the deposited data

Results flagged for a closer look

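A single library stood far from the rest of its group in 10 of 160 groups of FPKM values, where chance gives about 1 in 20. Library CAC_FP 4 accounted for 4 of them, as the highest of its group for Ppara (6.1 FPKM, next highest 2.02), Acads (112.2 FPKM, next 68.7), Hadh (44.21 FPKM, next 23.5) and Acat1 (38.63 FPKM, next 31.8). Etfa reached 82.63 FPKM in CAC_F 3, above 56.2 in the next library of CAC_F. Etfb reached 111.6 FPKM in CAC 1, above 73.9 in the next. Bdh1 reached 52.42 FPKM in NC 2, above 37.2 in the next. Angptl4 reached 6.17 FPKM in CAC 5, above 1.99 in the next. Fabp1, which was not tested, reached 5.55 FPKM in CAC_FP 1 and 0.5 FPKM in CAC 1, above 0.22 and 0.1 FPKM in the next library of each group.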

How the results depend on the processing

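No fold change of a member or of a named gene reversed sign while called. Of 20 members called in CAC_F against CAC, 13 were called under every alternative, as were 3 of 9 in CAC_FP against CAC, 0 of 1 in CAC_FPL against CAC and 0 of 11 in CAC_FPL against CAC_F. Leaving out 1 library gave 17 to 20 calls in CAC_F against CAC, 6 to 10 in CAC_FP against CAC, 0 to 2 in CAC_FPL against CAC, 2 to 12 in CAC_FPL against CAC_F, and 0 to 0 in CAC against NC, CAC_FP against CAC_F and CAC_FPL against CAC_FP. The share of all tested genes called moved too, from 32.5% to 40.5% in CAC_F against CAC and from 10.0% to 22.9% in CAC_FP against CAC. It moved from 0.153% to 5.29% in CAC_FPL against CAC and from 2.82% to 16.8% in CAC_FPL against CAC_F. The share was at most 4.08% in CAC_FP against CAC_F, and at most 0.0265% in CAC against NC and in CAC_FPL against CAC_FP. Without the filter on low values, which tests more genes, CAC_FP against CAC had 5 calls, beside 5.02% of all tested genes. CAC_FPL against CAC then had 0 (0.216%) and CAC_FPL against CAC_F 5 (1.96%). In CAC_FPL against CAC, 1 member was called, beside 1.41% of all tested genes. There were 2 with a mean FPKM of at least 5 (2.38%) or with median-ratio size factors (1.47%). DESeq2 gave 3 (5.7%), as did leaving out CAC 2 and CAC_FPL 3 (8.4%), and the general epithelial covariate gave 4 (3.11%). There were 0 with voom (1.4%), with only the 2 groups (0.0597%) or without CAC_FPL 1 and CAC_FPL 6 (0.796%). In CAC_FPL against CAC_F there were 0 with only the 2 groups (fewer samples) or without CAC_F 1 and CAC_F 2, both beside 0.0% of all tested genes. Without CAC_FPL 1 and CAC_FPL 6 there were 5 (6.45%). Beyond fewer samples or more genes, the cause was not tested.

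Deviations of same-numbered libraries correlated between 0.0166 and 0.287 in CAC_F against CAC, between -0.156 and 0.403 in CAC_FP against CAC_F, and between -0.561 and 0.403 over the 7 comparisons. In no comparison did every pair exceed 0.1, so the libraries were taken to share only a number. With the replicate number as a block the calls were 20 in CAC_F against CAC, beside 38.0% of all tested genes. They were 9 in CAC_FP against CAC (17.2%), 11 in CAC_FPL against CAC_F (13.6%) and 0 in CAC_FPL against CAC (0.63%). The other 3 comparisons had 0 (0.0%).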
